A study of Homo sapiens with 12 samples.

Results

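The difference between the H89 effect in HDAC1_S434A cells and the H89 effect in wild-type cells was measured for each gene in HepG2 cells, an established human liver cancer line. It was taken as the log2 change with H89 in S434A cells minus the log2 change with H89 in WT cells, and is called the interaction here. A positive interaction means that the H89 effect was more positive in S434A cells than in WT cells, also where both effects were negative. Where no other quantity is named, a value given for a gene is its interaction on the log2 scale. All 12 RNA sequencing libraries of the study entered it, and each of the 4 groups held 3 biological replicates. The groups were HDAC1_S434A cells with H89, HDAC1_S434A cells without H89, WT_HDAC1 cells with H89 and WT_HDAC1 cells without H89. The name S434A stands for HDAC1 with alanine in place of a serine. The dose and time of H89, the way the mutant or WT HDAC1 was introduced, the number of clones per genotype and the presence of other HDAC1 alleles are not given in the sources used. Of 62475 gene identifiers counted, 14435 had enough counts to be tested. A gene was called where the adjusted p was under 0.05 and the fold over 2 (edgeR quasi-likelihood test, Benjamini-Hochberg adjustment), the thresholds of the series design, and 3491 genes were called.

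HDAC1 is a class I histone deacetylase. It removes acetyl groups from histones and other proteins as a subunit of the Sin3, NuRD and CoREST corepressor complexes. Protein kinase A (PKA) is activated by cAMP, the second messenger through which glucagon acts on the liver, and phosphorylates serine and threonine residues of enzymes and of transcription factors such as CREB, which recruits the acetyltransferases CBP and p300. H89 is an isoquinoline sulfonamide that blocks the ATP site of PKA and also inhibits other kinases. A genotype by drug interaction asks whether the response to the drug depends on the genotype. It can take several forms over 4 groups: a response in 1 genotype alone, responses of unequal size, or responses of opposite sign.

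The libraries differed in make-up in ways that went with the groups. Total counts ran between 17562754 and 37187794, with the highest totals in WT cells without H89. Genes of ribosomal proteins made up 7.81% to 7.83% of counts in S434A cells with H89, 9.40% to 11.3% in S434A cells without H89, 7.28% to 7.66% in WT cells with H89, and 19.2% to 19.7% in WT cells without H89. Mitochondrially encoded genes took 5.57% to 5.94%, 3.16% to 7.02%, 4.91% to 6.26%, and 1.48% to 1.51% of counts in the same order of groups. The spread between replicates, as the biological coefficient of variation, was 0.0556 in S434A cells with H89, 0.351 in S434A cells without H89, 0.0775 in WT cells with H89, and 0.0197 in WT cells without H89, while the fit uses 1 estimate per gene for all 4 groups. In the widest group, S434A cells without H89, the 3 libraries stood apart from each other: albumin took 0.293% of counts in replicate 1, 1.82% in replicate 2 and 2.43% in replicate 3. Across genes, deviations from the mean of all libraries had a Spearman correlation with GC content of 0.81, 0.71 and 0.13 in these 3 libraries, and between -0.44 and -0.065 in the other 9. A value "with the trends removed" below comes from a fit that takes out, library by library, the smooth dependence of counts on the GC content and length of genes. The genotype cannot be read from counts per gene, since a change of 1 residue leaves the gene count in place. HDAC1 itself (chromosome 1, 32757684 to 32799236, hg19) measured 622, 680.3 and 552 CPM with H89 and 713, 752 and 659 CPM without H89 in S434A cells, against 693, 665 and 732 CPM with H89 and 682, 704 and 679 CPM without H89 in WT cells. Its interaction was -0.21 (SE 0.11, adjusted p = 0.14), and -0.44 (adjusted p = 0.0039) with the trends removed.

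The H89 effect was higher in S434A cells for 1696 genes (11.7% of genes tested) and lower for 1795 (12.4%). At any fold, 3469 genes passed the test with a higher H89 effect in S434A cells (24.0%) and 3466 with a lower one (24.0%). Among the 1696 called higher, the median interaction was 1.42, with a median H89 effect of 0.01 in S434A cells and of -1.41 in WT cells. Among the 1795 called lower, the median interaction was -1.34, with a median H89 effect of -0.13 in S434A cells and of 1.28 in WT cells. In both sets the median effect was near 0 in S434A cells and far from it in WT cells, downward in the first set and upward in the second. Over all genes tested the medians were 0.07 for the interaction, 0.01 for the H89 effect in S434A cells and 0.20 for that in WT cells. With the scaling of DESeq2 (RLE factors) in place of TMM, the last of these was 0.05.

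The same interaction can be read as a difference between genotypes that depends on H89. Between S434A and WT cells with H89, 0 of 14435 genes passed the edgeR test (0%), 589 had an unadjusted p under 0.05, and the smallest adjusted p was 0.237. This test takes its spread from all 4 groups, among them S434A cells without H89, which were far wider than either H89 group, so it can miss differences between the H89 groups. DESeq2 found 2 genes past the adjusted threshold, limma-voom found 0 and limma-voom with a weight per group found 3. With the weight per group, 1827 genes had an unadjusted p under 0.05. Between S434A and WT cells without H89, 8418 genes passed (58.3%). Among the genes called higher, the median log2 difference between S434A and WT cells was 0.11 with H89 and -1.28 without it, and among those called lower it was -0.11 with H89 and 1.23 without it. The gap between genotypes was narrower with H89 than without it for 3447 of the 3491 called genes (98.7%), against 88.1% of all genes tested. A p that misses the threshold does not show that the genotypes had equal levels with H89.

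**Figure D1:**
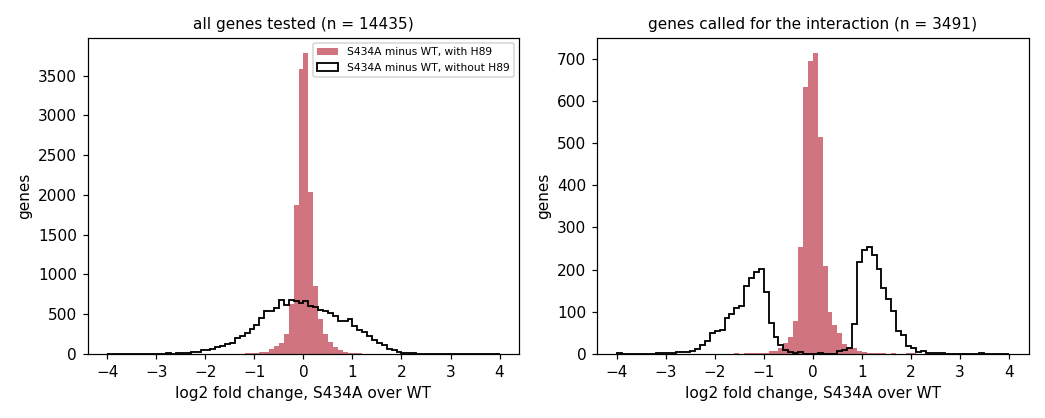
Histograms of the log2 fold change of S434A over WT cells, with H89 (filled) and without H89 (line), for all 14435 genes tested (left) and the 3491 genes called for the interaction (right). The horizontal axis is the log2 fold change and the vertical axis the number of genes; the called genes lie near 0 with H89 and in 2 separate humps without it.

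By the H89 effect in each genotype, the most frequent form was a response that passed the test in WT cells alone: 2096 of the 3491 called genes (60.0%), against 31.7% of all genes tested. It held 831 genes called higher and 1265 called lower. The H89 effect passed in both genotypes with the same sign, and was smaller in S434A cells, for 690 genes (19.8%, against 25.4% of all). For 362 genes (10.4%, against 4.05%) it passed in both with opposite signs. It passed in S434A cells alone for 275 genes (7.88%, against 14%), in neither for 64 (1.83%, against 16.3%), and in both with a larger effect in S434A cells for 4 (0.115%, against 8.56%). An H89 effect of any size passed for 7504 genes in S434A cells (52.0%) and for 10065 in WT cells (69.7%). These classes are a description, since they use the same libraries as the interaction.

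**Figure D2:**
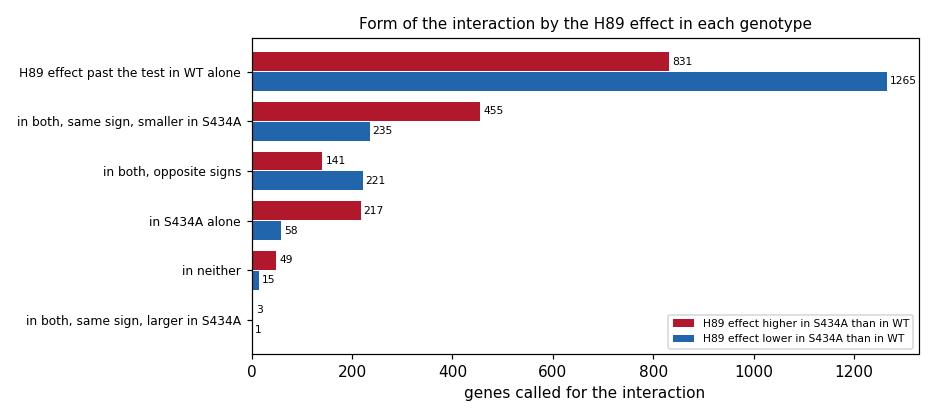
Number of genes called for the interaction (horizontal axis) by which genotype's H89 effect passed the test (rows), split into genes whose H89 effect was higher (red) or lower (blue) in S434A cells than in WT cells. The response in WT cells alone holds the longest bars, 831 and 1265 genes.

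In terms of the 4 group means, WT cells without H89 lay farthest from the mean of the other 3 groups for 3004 called genes (86.0%, against 58.0% of all genes tested). S434A cells without H89 lay farthest for 446 (12.8%, against 30.3%), WT cells with H89 for 26 and S434A cells with H89 for 15. The 3 libraries of S434A cells and the 3 of WT cells did not overlap without H89 for 98.3% of called genes (62.7% of all), and did not overlap with H89 for 25.3% (17.3% of all). No called gene changed sign when the difference of differences was taken on linear CPM, against 2.61% of all genes tested. Called genes were chosen for a large interaction on the log2 scale, so this is a description and not a check of the calls. The counts rested unevenly on S434A cells without H89. Leaving out replicate 3 of that group gave 1493 genes with opposite signs and 691 with a response in S434A cells alone. The same fit gave 93 with a larger response there and 1189 with S434A cells without H89 farthest. Leaving out replicate 1 gave 103 with a response in S434A cells alone and 228 with S434A cells without H89 farthest. Leaving out replicate 2 of that group gave 222 with opposite signs, and between 229 and 241 were found without replicate 2 or 3 of S434A cells with H89 or replicate 1 or 3 of WT cells without H89. Over all 12 such fits, a response in WT cells alone held between 1523 and 2163 genes. The classes given here are those of fits that keep the GC and length trends, and single genes could move with the trends removed. COX7C, SPTBN1 and DNAJC19 had the 3 smallest p-values of the class with a response in WT cells alone. Their H89 effects in S434A cells were -0.19, 0.11 and -0.04 as fitted, and -0.74, -0.16 and -1.08 with the trends removed.

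Genes for making proteins formed the plainest block with a higher H89 effect in S434A cells. Of 44 large-subunit ribosomal protein genes tested, 42 passed the test higher and 0 lower, where 24.0% of all genes tested passed in each direction, with a median interaction of 1.29 (1.03 with the trends removed). Of 32 small-subunit genes, 30 passed higher and 0 lower, with a median of 1.32 (0.97). The median H89 effect was -0.39 in S434A cells against -1.48 in WT cells for the large subunit, and -0.40 against -1.80 for the small one. RPL27A stood at 940.1, 946 and 917 CPM with H89 and 1387, 1329 and 1492 CPM without H89 in S434A cells, against 954, 895 and 943 CPM with H89 and 3692, 3833 and 3663 CPM without H89 in WT cells. The H89 groups overlapped each other, and S434A cells without H89 lay between them and the untreated WT cells, with no overlap. The interaction of RPL27A, a protein of the large subunit, was 1.42 (SE 0.08, adjusted p = 7.5e-06), made of an H89 effect of -0.59 in S434A cells and of -2.00 in WT cells. RPS20 measured 736, 715 and 697 CPM with H89 and 1039, 1058 and 1140.4 CPM without H89 in S434A cells, against 679, 652 and 685 CPM with H89 and 2630.4, 2644 and 2577 CPM without H89 in WT cells. RPS20, of the small subunit, had an interaction of 1.37 (SE 0.07, adjusted p = 7.5e-06), which was 0.58 (adjusted p = 0.017) with the trends removed. RPS18, RPS2, RPL35A, RPL8 and RPL27 had interactions of 1.39, 1.30, 1.84, 1.06 and 1.42. Many ribosomal protein genes have near-identical processed pseudogenes, so reads may be shared among copies and single values are uncertain. Their summed share of counts is one of the library measures that went with the groups, and its part in other genes' CPM was not tested beyond a fit without ribosomal and mitochondrially encoded genes, which called 1761 genes higher and 1669 lower. In these bulk counts, fewer cells with a transcript and less of it per cell cannot be told apart.

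**Figure D3:**
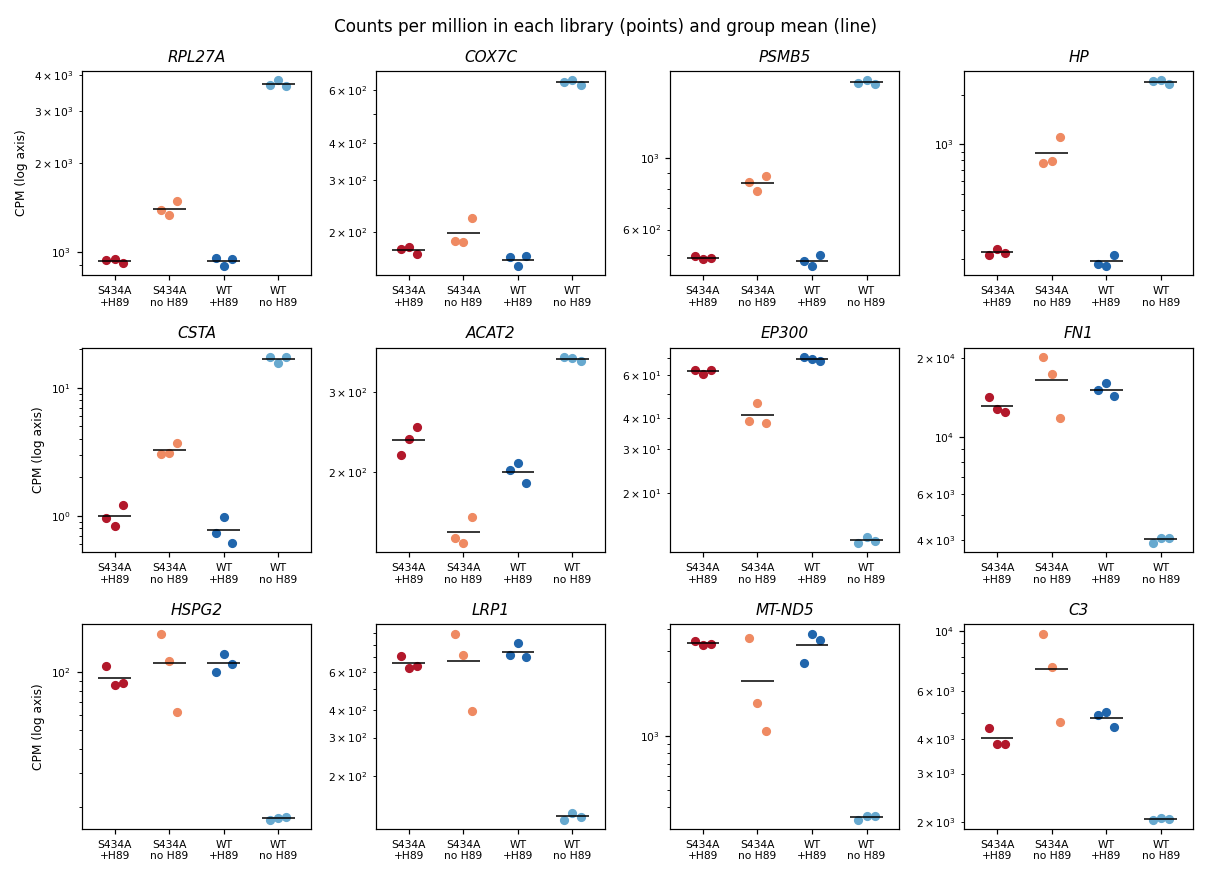
CPM (TMM-scaled counts, log axis) of 12 genes in each of the 12 libraries (points) with the group mean (line); within a panel the groups run S434A with H89, S434A without H89, WT with H89 and WT without H89. WT cells without H89 stand apart in every panel. In ACAT2 the S434A cells without H89 lie on the far side of the H89 groups. In C3 their replicates 1 and 2 do so, and replicate 3 lies within the range of the H89 groups.

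Nuclear genes of the respiratory chain followed the same form. Of 40 tested, 35 passed higher and 0 lower, with a median interaction of 1.15 (0.76 with the trends removed, where 27 passed higher and 1 lower). COX7C had 175, 178 and 169 CPM with H89 and 186, 185 and 223 CPM without H89 in S434A cells, against 165, 154 and 165 CPM with H89 and 642, 650.0 and 625 CPM without H89 in WT cells. COX7C is a small subunit of cytochrome c oxidase, and its level in WT cells without H89 was above that of every library of the other groups. Its interaction was 1.80 (SE 0.10, adjusted p = 7.5e-06), with an H89 effect of -1.99 in WT cells and one of -0.19 (adjusted p = 0.052) in S434A cells, and fell short of the test with the trends removed at 0.53 (adjusted p = 0.13). UQCRH of complex III had an interaction of 1.94 (SE 0.14, adjusted p = 7.5e-06) and NDUFA1 of complex I one of 1.88 (SE 0.14, adjusted p = 7.5e-06), and with the trends removed these were 1.47 and 1.37. COX6A1 had 1.66 (0.49 with the trends removed). ATP5MF, a subunit of ATP synthase, and MRPL34, of the mitochondrial ribosome, had 1.27 (SE 0.08, adjusted p = 7.5e-06) and 1.32 (SE 0.08, adjusted p = 7.5e-06). DNAJC19, a co-chaperone of the mitochondrial inner membrane, had 1.63, which did not pass with the trends removed (0.53, adjusted p = 0.25).

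The mRNAs encoded by mitochondrial DNA went the other way. Of 13 tested, 12 passed with a lower H89 effect in S434A cells and 1 with a higher one, and the median interaction was -1.66 (-2.67 with the trends removed, and -1.10 without replicate 1 of S434A cells without H89). MT-ND5 stood at 3415, 3231 and 3298 CPM with H89 and 3534, 1539.7 and 1068 CPM without H89 in S434A cells, against 2575, 3752 and 3464 CPM with H89 and 339, 356 and 356 CPM without H89 in WT cells. MT-ND5, a complex I subunit, was lowest in WT cells without H89, and replicate 1 of S434A cells without H89 lay among the H89 libraries while replicates 2 and 3 lay below them. Its interaction was -2.53 (SE 0.49, adjusted p = 0.0016). MT-ND4 and MT-CO2 had -1.99 (SE 0.40, adjusted p = 0.0021) and -1.03 (SE 0.21, adjusted p = 0.0022). MT-ND3 was the member that passed higher, at 0.63 (SE 0.10, adjusted p = 0.00048), and its sign turned with the trends removed (-0.22, adjusted p = 0.25). Most nuclear and most mitochondrial genes of one chain therefore had interactions of opposite sign, and WT cells without H89 had both the highest share of ribosomal protein counts and the lowest share of mitochondrially encoded counts; the part of library make-up in this was not tested.

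Proteasome subunits resembled the ribosomal genes. Of 31 tested, 27 passed higher and 0 lower, with a median interaction of 0.91, and with the trends removed 17 passed higher and 1 lower, with a median of 0.37. PSMB5 measured 496, 488 and 489.9 CPM with H89 and 839.7, 789 and 877 CPM without H89 in S434A cells, against 480.4, 463 and 500.2 CPM with H89 and 1698, 1736 and 1686 CPM without H89 in WT cells. PSMB5, a catalytic subunit of the core particle, was lower with H89 in both genotypes, with effects of -0.77 in S434A cells and -1.83 in WT cells, and its interaction was 1.06 (SE 0.07, adjusted p = 7.5e-06), and 0.66 with the trends removed. PSMD4 and PSMD13 of the regulatory particle had 1.12 and 1.26. PSMB1 had 1.14, and -0.0037 (adjusted p = 0.99) with the trends removed. Other genes among the smallest p-values with a higher effect in S434A cells were DYNLL1, a dynein light chain, at 1.44 (SE 0.08, adjusted p = 7.5e-06) and BPNT1, a bisphosphate nucleotidase, at 1.58 (SE 0.10, adjusted p = 7.5e-06). With the trends removed these were 1.27 and 0.81.

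**Figure D4:**
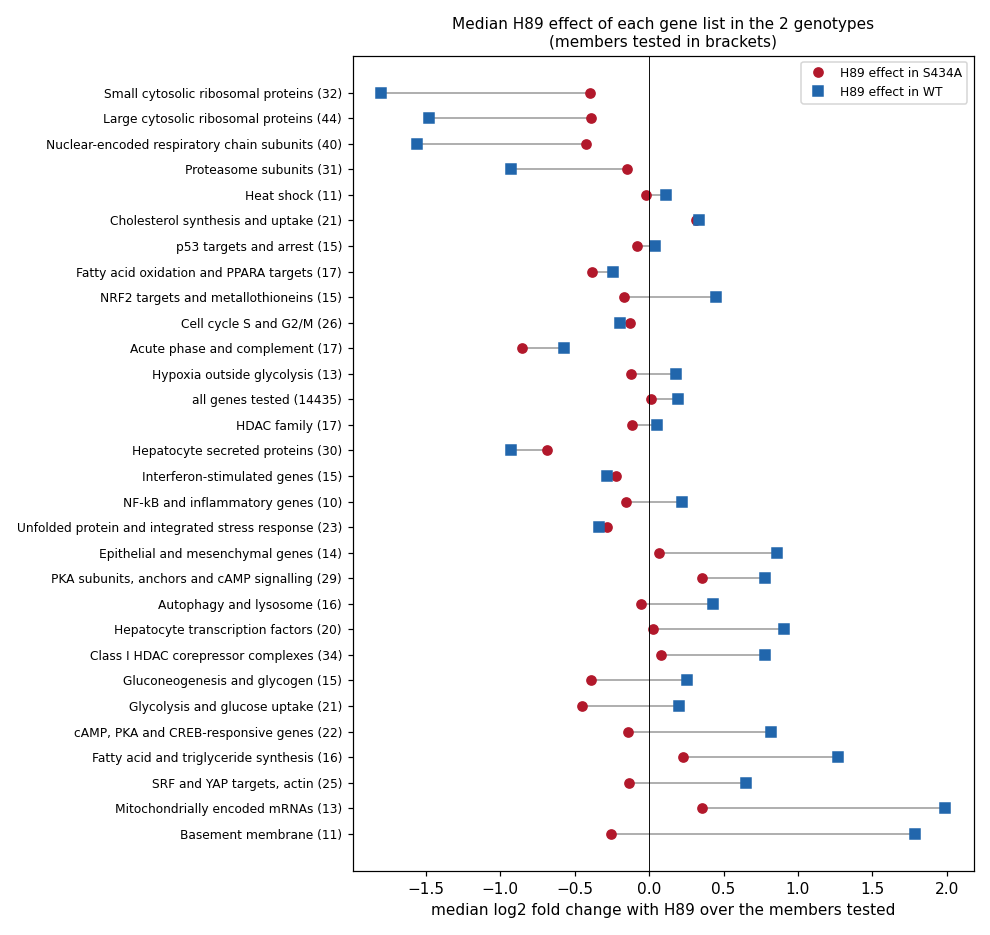
Median log2 fold change with H89 over the tested members of each gene list, in S434A cells (circles) and in WT cells (squares), with the number of members in brackets and lists ordered by their median interaction; the row for all genes tested is the comparison. Ribosomal, respiratory chain and proteasome lists lie lower in WT cells, and basement membrane and mitochondrially encoded lists lie higher in WT cells.

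Of 30 genes of proteins that hepatocytes secrete, 9 passed higher and 7 lower, and the median interaction was 0.01. The share that passed, 53.3%, was near the 48.0% of all genes tested. APOA2, an apolipoprotein of HDL, was among those with a higher effect in S434A cells. APOA2 had 1706, 1663 and 1694 CPM with H89 and 2003, 1982 and 2096 CPM without H89 in S434A cells, against 1599.6, 1621 and 1571 CPM with H89 and 4097, 4263 and 4262 CPM without H89 in WT cells. As fitted, APOA2 was lower with H89 in both genotypes, less so in S434A cells, and the interaction was 1.13 (SE 0.06, adjusted p = 7.5e-06). With the trends removed the interaction was 0.66, with an H89 effect of 0.14 in S434A cells and -0.53 in WT cells. APOA1, APOC1 and AMBP, the precursor of alpha-1-microglobulin and bikunin, had 0.82, 1.28 and 0.89. FABP1, the liver fatty acid binding protein, had 1.65 (SE 0.11, adjusted p = 7.5e-06) and 1.25 with the trends removed. In the fatty acid oxidation list, which holds FABP1, 7 of 17 tested passed higher and 3 lower (58.8% in all). ACAA1 was at 0.72, SLC25A20, the carnitine carrier, at 0.90 and ACAA2 at 0.49.

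Of 17 acute phase and complement genes tested of 21, 5 passed higher and 5 lower, where 24.0% of all genes tested passed in each direction. HP stood at 213, 229.5 and 217 CPM with H89 and 771, 796 and 1100.2 CPM without H89 in S434A cells, against 186, 181 and 213 CPM with H89 and 2434, 2461 and 2338 CPM without H89 in WT cells. HP encodes haptoglobin, which binds free haemoglobin, and shares sequence with HPR, so its count is uncertain. It was lower with H89 in both genotypes, with effects of -2.02 in S434A cells and -3.64 in WT cells, and the interaction was 1.62 (SE 0.17, adjusted p = 3.5e-05). C3 measured 4401, 3860.1 and 3841 CPM with H89 and 9742, 7378 and 4633 CPM without H89 in S434A cells, against 4927, 5030.5 and 4446 CPM with H89 and 2033, 2062 and 2054 CPM without H89 in WT cells. C3, the central complement protein, was lower with H89 in S434A cells at -0.85 and higher with H89 in WT cells at 1.23, so that its interaction was -2.07 (SE 0.29, adjusted p = 0.00022), and -1.25 with the trends removed. C4B, which shares nearly all its sequence with C4A and is therefore uncertain, had H89 effects of the same signs, -0.82 in S434A cells and 1.13 in WT cells, and an interaction of -1.96 (SE 0.25, adjusted p = 0.00013), and -1.12 with the trends removed. ORM1, which has a close copy in ORM2, had 0.65.

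Opposite H89 effects in the genotypes were found for 141 genes called higher and 221 called lower. ACAT2 had 217, 236 and 251 CPM with H89 and 142, 139 and 158 CPM without H89 in S434A cells, against 202, 209 and 189 CPM with H89 and 359.6, 357 and 353 CPM without H89 in WT cells. ACAT2 (acetyl-CoA acetyltransferase, chromosome 6, 160183077 to 160200144, hg19) is a cytosolic thiolase that starts the mevalonate route. With H89 it was higher in S434A cells at 0.68 (SE 0.07) and lower in WT cells at -0.83 (SE 0.07), and no 2 of the 4 groups overlapped. Its interaction was 1.51 (SE 0.10, adjusted p = 7.5e-06), and 1.24 with the trends removed. SNHG5, a host gene of small nucleolar RNAs, had H89 effects of 0.39 in S434A cells and -1.57 in WT cells, with an interaction of 1.96 (SE 0.18, adjusted p = 1.5e-05). ZNF69, a zinc finger gene, had H89 effects of 0.96 in S434A cells and -0.81 in WT cells, with an interaction of 1.77 (SE 0.16, adjusted p = 1.4e-05). THBS1, thrombospondin 1, ran the other way, with H89 effects of -0.61 in S434A cells and 0.90 in WT cells, with an interaction of -1.51 (SE 0.14, adjusted p = 1.6e-05). Without replicate 3 of S434A cells without H89 this class held 1493 genes in place of 362.

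Among single genes with a lower H89 effect in S434A cells were EP300, CREBBP, NCOA6, CHD8 and SRRM2, whose proteins act in chromatin, transcription or splicing. EP300 stood at 62.9, 60.3 and 62.8 CPM with H89 and 39.1, 46.3 and 38.4 CPM without H89 in S434A cells, against 70.8, 69.4 and 68.4 CPM with H89 and 12.6, 13.3 and 12.8 CPM without H89 in WT cells. EP300 (chromosome 22, 41488596 to 41576081, hg19) encodes the acetyltransferase p300, and WT cells without H89 were below every library of the other groups. H89 raised it in both genotypes, by 0.59 (SE 0.08) in S434A cells and 2.43 (SE 0.08) in WT cells, and the interaction was -1.84 (SE 0.11, adjusted p = 7.5e-06), and -1.14 with the trends removed. CREBBP, which encodes the related acetyltransferase CBP, had H89 effects of 0.56 in S434A cells and 2.28 in WT cells, and an interaction of -1.71 (SE 0.18, adjusted p = 3e-05), and -0.76 with the trends removed. NCOA6 measured 75.8, 77.2 and 75.4 CPM with H89 and 50.9, 54.0 and 42.2 CPM without H89 in S434A cells, against 82.6, 80.3 and 80.1 CPM with H89 and 15.7, 16.5 and 16.8 CPM without H89 in WT cells. NCOA6, a coactivator of nuclear receptors, had -1.67 (SE 0.12, adjusted p = 7.5e-06). CHD8, a chromatin remodeller, had -1.30 (SE 0.09, adjusted p = 7.5e-06) and SRRM2, a large splicing protein, -2.11 (SE 0.15, adjusted p = 7.5e-06). With the trends removed CHD8 was at -0.51, under a 2-fold change, and SRRM2 at -1.18.

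The remaining genes with the smallest p-values and a lower effect in S434A cells were of mixed function. DYNC1H1 had 377, 349.6 and 379 CPM with H89 and 317, 326 and 248 CPM without H89 in S434A cells, against 419.7, 436 and 388 CPM with H89 and 80.8, 90.1 and 85.9 CPM without H89 in WT cells. DYNC1H1, the heavy chain of cytoplasmic dynein, had -1.97 (SE 0.14, adjusted p = 7.5e-06), opposite in sign to the light chain DYNLL1. IGF1R, the receptor of insulin-like growth factor 1, had -1.76 (SE 0.12, adjusted p = 7.5e-06), HECTD4, a HECT domain protein, -1.80 (SE 0.11, adjusted p = 7.5e-06), SPTBN1, a beta spectrin, -1.19 (SE 0.08, adjusted p = 7.5e-06), and ZFP36L1, which promotes mRNA decay, -1.37 (SE 0.10, adjusted p = 7.5e-06). With the trends removed, DYNC1H1 was at -0.77, IGF1R at -0.99, HECTD4 at -0.80, SPTBN1 at -0.38 and ZFP36L1 at -1.31, so that ZFP36L1 alone of these stayed over 2-fold.

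HDAC family members did not share a direction. Of 17 tested of 18, 5 passed higher and 5 lower (58.8% in all, against 48.0% of all genes tested). Their median interaction was 0.03. HDAC3, the catalytic subunit of the NCoR and SMRT complexes, had 77.9 ± 2.23 CPM with H89 and 94.2 ± 2.94 CPM without H89 in S434A cells, against 80.4 ± 1.40 CPM with H89 and 153 ± 1.61 CPM without H89 in WT cells (SD, n = 3 each), and an interaction of 0.66 (SE 0.07, adjusted p = 4.6e-05). The class II members HDAC6, HDAC4 and HDAC7 had lower effects in S434A cells at -1.195, -1.15 and -1.57, which were -0.31, -0.26 and -0.62 with the trends removed. Among 34 tested genes of the class I corepressor complexes, 8 passed higher and 17 lower (73.5% in all, against 48.0% of all genes tested). Their median was -0.40 (-0.18 with the trends removed). The subunits of one complex could differ in sign. SAP18 stood at 106, 111 and 107 CPM with H89 and 117, 118 and 129 CPM without H89 in S434A cells, against 103, 100.5 and 109 CPM with H89 and 324, 324 and 309.9 CPM without H89 in WT cells. SIN3A measured 57.8, 58.6 and 55.8 CPM with H89 and 50.1, 51.0 and 45.0 CPM without H89 in S434A cells, against 60.7, 58.6 and 63.2 CPM with H89 and 21.4, 21.4 and 21.4 CPM without H89 in WT cells. SAP18, a Sin3-associated protein, was highest in WT cells without H89, and SIN3A, the Sin3 scaffold, was lowest there. Their interactions were 1.45 (SE 0.08, adjusted p = 7.5e-06) and -1.27 (SE 0.09, adjusted p = 7.5e-06), and with the trends removed 0.60 (adjusted p = 0.054) and -0.85. DNTTIP1 and MIDEAS, partners in the mitotic deacetylase complex, had 0.88 and -1.58.

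Extracellular matrix genes carried some of the most negative interactions. Of 11 basement membrane genes tested of 15, 8 passed lower and 0 higher, with a median of -1.77 (-0.92 with the trends removed); the median H89 effect was -0.26 in S434A cells and 1.78 in WT cells. HSPG2 had 107, 85.0 and 87.1 CPM with H89 and 157, 114 and 61.6 CPM without H89 in S434A cells, against 100.3, 123 and 109 CPM with H89 and 17.2, 17.7 and 17.9 CPM without H89 in WT cells. HSPG2, which encodes perlecan, was lowest in WT cells without H89, with no overlap with another group, and its interaction was -2.91 (SE 0.37, adjusted p = 0.00014), and -1.42 with the trends removed. LAMC1 and LAMB1, laminin chains, and NID1, nidogen 1, had -1.39 (SE 0.11, adjusted p = 8.1e-06), -1.35 (SE 0.13, adjusted p = 2e-05) and -1.91 (SE 0.17, adjusted p = 1.5e-05). FRAS1, a matrix protein of the epithelial basement membrane, had 191 ± 8.24 CPM with H89 and 146 ± 22.7 CPM without H89 in S434A cells, against 205 ± 13.6 CPM with H89 and 36.5 ± 0.414 CPM without H89 in WT cells (SD, n = 3 each), with an interaction of -2.10 (SE 0.14, adjusted p = 7.5e-06), and -1.32 with the trends removed. FN1 stood at 14144, 12761 and 12439 CPM with H89 and 20248, 17465 and 11775 CPM without H89 in S434A cells, against 15081, 16072 and 14347 CPM with H89 and 3911, 4084 and 4102 CPM without H89 in WT cells. FN1 encodes fibronectin, a protein of plasma and matrix. WT cells without H89 lay below all other libraries, and the range of S434A cells without H89 overlapped both H89 groups. Its interaction was -2.24 (SE 0.22, adjusted p = 2.5e-05), with an H89 effect of -0.33 (adjusted p = 0.092) in S434A cells and 1.91 in WT cells. With the trends removed these effects were -1.86 and 0.71, and the interaction was -2.57. LRP1, an endocytic receptor, and BGN, biglycan, had -2.54 (SE 0.32, adjusted p = 0.00012) and -2.41 (SE 0.38, adjusted p = 0.00041), and with the trends removed -1.45 and -2.30.

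The promoter of FN1 in the RefSeq table held the full cAMP response element TGACGTCA, the letters that CREB binds. The 250 bases before its start (GRCh38.p14, chr2:215436069-215436318, minus strand) are shown because H89 is a PKA inhibitor and CREB a PKA substrate; the capitals mark the element, which begins 183 bases before the start.
FN1 promoter: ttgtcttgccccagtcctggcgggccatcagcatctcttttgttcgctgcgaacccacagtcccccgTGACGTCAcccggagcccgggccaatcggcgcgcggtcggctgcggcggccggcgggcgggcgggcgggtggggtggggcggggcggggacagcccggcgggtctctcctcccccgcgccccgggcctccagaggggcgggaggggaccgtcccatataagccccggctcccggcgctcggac
These letters, a palindrome and so read alike on both strands, were found in 43 of 1224 RefSeq promoters of genes called higher (3.51%), 37 of 1297 of genes called lower (2.85%) and 349 of 10540 of all genes tested (3.31%), within windows of 250 bases before to 50 after the start. The shorter TGACG, on either strand and including the full element, was in 35.5%, 31.0% and 34.2% of the same promoters. The called genes were thus close to all genes tested, and a match is a description and not a site of binding.

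Genes that respond to serum, YAP and actin state had mostly lower H89 effects in S434A cells. Of 25 tested, 18 passed lower and 4 higher (88.0% in all, against 48.0% of all genes tested). Their median was -0.86 (-0.64 with the trends removed). MYH9 averaged 599 ± 16.8 CPM with H89 and 693 ± 218 CPM without H89 in S434A cells, against 683 ± 50.3 CPM with H89 and 197 ± 2.17 CPM without H89 in WT cells (SD, n = 3 each). MYH9, a non-muscle myosin heavy chain, had an interaction of -2.00 (SE 0.26, adjusted p = 0.00014), VCL, vinculin, -1.01 (SE 0.10, adjusted p = 3e-05) and ACTN4, an actinin, -1.03 (SE 0.14, adjusted p = 0.00015), with -1.03, -0.92 and -0.31 with the trends removed. SOX9, a cholangiocyte marker that is not in this list, had -1.69 (SE 0.14, adjusted p = 9.6e-06). It was the only 1 of the 3 cholangiocyte markers tested that passed. KRT19 had -0.19 (adjusted p = 0.16) and EPCAM 0.51 (adjusted p = 0.055).

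The list of cAMP, PKA and CREB genes holds both genes that respond to cAMP and coactivators of CREB. Of 22 tested of 27, 10 passed lower and 2 higher (54.5% in all, against 48.0% of all genes tested). Their median was -0.53 (-0.43 with the trends removed). NR4A2, NR4A3, ICER, SIK1 and PDE4B were not tested. Of the 10 that passed lower, CREBBP, CRTC1, CRTC2 and CRTC3 are coactivators and not responsive genes. EGR1 measured 16.7, 19.2 and 17.9 CPM with H89 and 17.6, 17.3 and 15.3 CPM without H89 in S434A cells, against 23.1, 20.01 and 22.3 CPM with H89 and 8.42, 9.01 and 7.89 CPM without H89 in WT cells. EGR1, an immediate early gene, differed little with H89 in S434A cells and was higher with H89 than without it in WT cells, where the libraries did not overlap. Its interaction was -1.27 (SE 0.15, adjusted p = 6.3e-05), and -1.26 with the trends removed. CRTC2, a CREB coactivator of the fasting response, had -1.21 (SE 0.18, adjusted p = 0.00028). CREM, a CREB relative, moved the other way, with H89 effects of 0.66 in S434A cells, -0.62 in WT cells and an interaction of 1.27 (SE 0.18, adjusted p = 0.00024). Among 29 tested genes of PKA subunits, anchors and cAMP signalling, 2 passed higher and 10 lower (41.4% in all, against 48.0% of all genes tested). Without replicate 1 of S434A cells without H89, 4 passed higher and 15 lower. PKIG, a PKA inhibitor protein, had 1.01 (SE 0.09, adjusted p = 1e-05). ADCY9 and ADCY6, adenylyl cyclases, had -1.74 (SE 0.20, adjusted p = 5.7e-05) and -1.13 (SE 0.19, adjusted p = 0.00053), and AKAP13, an anchor of PKA, -1.53 (SE 0.19, adjusted p = 8.9e-05). With the trends removed each of these 4 was under a 2-fold change, at 0.86 for PKIG, -0.80 for ADCY9, -0.31 for ADCY6 and -0.75 for AKAP13.

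In the synthesis of fatty acids and triglycerides, 16 of 18 genes were tested, with a median of -0.79. Of these, 9 passed lower and 0 higher (56.2% in all, against 48.0% of all genes tested). With the trends removed 7 passed lower and 2 higher, with a median of -0.12. FASN had 1249.5, 1278 and 1299.5 CPM with H89 and 1180.0, 925 and 549 CPM without H89 in S434A cells, against 1622, 1671 and 1285 CPM with H89 and 235, 226 and 232 CPM without H89 in WT cells. FASN, fatty acid synthase, was lowest in WT cells without H89 and wide in S434A cells without H89. Its interaction was -2.20 (SE 0.31, adjusted p = 0.00022), and -0.83 with the trends removed, and ACACA, SCD and ACLY had -1.03, -0.87 and -1.09. Cholesterol genes were counted likewise, with 7 of 21 tested higher and 6 lower (61.9% in all, against 48.0% of all genes tested). FDPS and PMVK, enzymes of the mevalonate route, had 0.89 and 0.98, while SREBF2, a factor that drives cholesterol genes, had -1.25. SREBF2 lost its call in 4 of 25 alternative fits (range -1.41 to -0.45). In glycolysis and glucose uptake 12 of 21 passed lower and 3 higher (71.4% in all, against 48.0% of all genes tested). Without replicate 1 of S434A cells without H89, 5 passed higher. With the trends removed 10 passed lower and 2 higher. HK2 was at -1.25, SLC2A3 at -0.98, ENO2 at -0.91 and LDHA at 0.53. In gluconeogenesis and glycogen 7 of 15 passed lower and 2 higher (60.0% in all, against 48.0% of all genes tested). FOXO1, a factor of the fasting state, was at -1.15, GYS1, glycogen synthase, at -1.40, and the phosphorylases PYGB and PYGL at -0.96 and -0.50. GYS1 lost its call in 4 of 25 alternative fits (range -1.59 to -0.85). Of 20 hepatocyte transcription factors, 7 passed lower and 3 higher, among them FOXA1 and FOXA2 at -0.87 and -1.08, RXRA at -1.17 (-0.02 with the trends removed) and NR1H3, the LXR-alpha gene, at 0.75.

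Of 11 heat shock genes tested, 4 passed higher and 2 lower. The share that passed in either direction was 54.5% in this list, 60.0% in the inflammatory list and 53.3% in the interferon list, near the 48.0% of all genes tested. HSPE1 stood at 75.5, 80.2 and 75.2 CPM with H89 and 75.9, 98.5 and 133 CPM without H89 in S434A cells, against 69.7, 59.1 and 74.0 CPM with H89 and 491, 517 and 494 CPM without H89 in WT cells. HSPE1, the mitochondrial co-chaperonin, was several times as high in WT cells without H89 as in any other library and had an interaction of 2.48 (SE 0.23, adjusted p = 1.8e-05), and 2.09 with the trends removed. HSPA8 and DNAJB1 had 0.89 and 0.52, and BAG3 had -1.40. Of 10 inflammatory genes tested of 17, 2 passed higher and 4 lower: CCL20, a chemokine, had 2.09 (SE 0.37, adjusted p = 0.00094), and TNFAIP3, ICAM1 and NFKB2 had -1.07, -1.62 and -1.27. Of 15 interferon-stimulated genes, 5 passed higher and 3 lower, with ISG15 at 1.27, OAS1 at 0.59, OAS3 at -1.56 and STAT2 at -1.04. Of 26 cell cycle genes, 4 passed higher and 6 lower (38.5% in all, against 48.0% of all genes tested), with CCNE1 at 0.89, CDK1 at 1.99, PLK1 at -0.97 and MCM5 at -0.73, and MCM5 turned sign with the trends removed (0.02, adjusted p = 0.81). Of 15 p53 targets, 2 passed in each direction (26.7% in all, against 48.0% of all genes tested). TP53I3 and CCNG1 were at 1.27 and 1.198, and SESN2 and PLK3 at -1.18 and -0.52. CCNG1 lost its call in 16 of 25 alternatives (range 0.14 to 1.60, adjusted p 0.000346 to 0.149), 0.22 with the trends removed among them.

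A response that passed in S434A cells alone was found for 275 called genes. This class held 103 genes without replicate 1 of S434A cells without H89 and 691 without replicate 3 of that group. SLC13A5 is an example of the class. SLC13A5 measured 235, 195 and 201 CPM with H89 and 512, 406 and 298 CPM without H89 in S434A cells, against 230.3, 241 and 221 CPM with H89 and 183, 184 and 186 CPM without H89 in WT cells. SLC13A5, the citrate transporter of the liver cell plasma membrane, was highest in S434A cells without H89, whose libraries did not overlap any other group. Its H89 effect was -0.95 in S434A cells and 0.32 (adjusted p = 0.084) in WT cells, with an interaction of -1.27 (SE 0.22, adjusted p = 0.00076). With the trends removed this interaction was -0.84, under a 2-fold change. NAALADL1, a peptidase gene, had H89 effects of -0.91 in S434A cells and 0.23 (adjusted p = 0.15) in WT cells, and C4orf33 had 1.88 in S434A cells and -0.23 in WT cells (adjusted p = 0.34). With the trends removed, the interaction was -0.63 for NAALADL1, under a 2-fold change, and 1.57 for C4orf33. The level of C4orf33 was low, at 0.215, 0.443 and 0.779 CPM in S434A cells without H89. SETDB2, a SET domain gene, ANKAR and GFRA3, a receptor of the GDNF family, were 3 of the 4 genes whose H89 effect passed in both genotypes with a larger size in S434A cells. SETDB2 had 9.997, 9.89 and 9.84 CPM with H89 and 0.915, 2.44 and 3.58 CPM without H89 in S434A cells, against 7.77, 8.15 and 9.52 CPM with H89 and 4.47, 4.77 and 4.11 CPM without H89 in WT cells. SETDB2 was higher with H89 by 2.09 in S434A cells and by 0.93 in WT cells, with an interaction of 1.16 (SE 0.43, adjusted p = 0.045) and of 0.74 with the trends removed. GFRA3 was lower with H89, at -2.11 in S434A cells and -1.09 in WT cells, with an interaction of -1.02 (SE 0.35, adjusted p = 0.031). GFRA3 lost its call in 15 of 25 alternatives (adjusted p 0.0129 to 0.1), SETDB2 in 16 (adjusted p 0.0019 to 0.0914) and ANKAR in 6 (adjusted p 0.0047 to 0.775). The class of larger effects in S434A cells held 0 genes without replicate 1 or 2 of WT cells without H89, and 93 without replicate 3 of S434A cells without H89. CCDC66, ANKRD49 and ZNF280D were called for the interaction (1.37, 1.83 and 2.02) although neither H89 effect passed the test by itself.

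A set of 1022 genes (29.3% of those called, 628 higher and 394 lower) was also called in the same direction in the fit with the trends removed and in limma-voom with a weight per group. By form as fitted, with the trends kept, 538 of these passed the H89 test in WT cells alone and 46 in S434A cells alone. Both effects passed for 334 with a smaller effect in S434A cells, 96 with opposite signs and 0 with a larger effect in S434A cells. Neither effect passed for 8. CSTA stood at 0.965, 0.836 and 1.21 CPM with H89 and 3.01, 3.10 and 3.69 CPM without H89 in S434A cells, against 0.732, 0.971 and 0.613 CPM with H89 and 17.4, 15.7 and 17.5 CPM without H89 in WT cells. CSTA, the protease inhibitor cystatin A, was highest in WT cells without H89, with an H89 effect of -1.69 in S434A cells, -4.43 in WT cells and an interaction of 2.74 (SE 0.26, adjusted p = 1.9e-05). The other 7 largest positive interactions in this set belonged to pseudogenes (RPS3AP6, GSTA7P, CDC26P1, RPS7P1, RPS3AP26, RPL17P7 and RPL21P16), between 2.82 and 3.10, whose reads may come from their parent genes. On the negative side, MTND4P12, a nuclear copy of MT-ND4 and uncertain for the same reason, had -4.46 (SE 0.82, adjusted p = 0.0012), NOTCH3, a Notch receptor, -2.57 (SE 0.45, adjusted p = 0.00082) and PRR36 -2.29 (SE 0.38, adjusted p = 0.00055), beside HSPG2, LRP1, MT-ND5, BGN and FN1 above. NOTCH3 and PRR36 were at -1.35 and -1.35 with the trends removed.

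**Figure D5:**
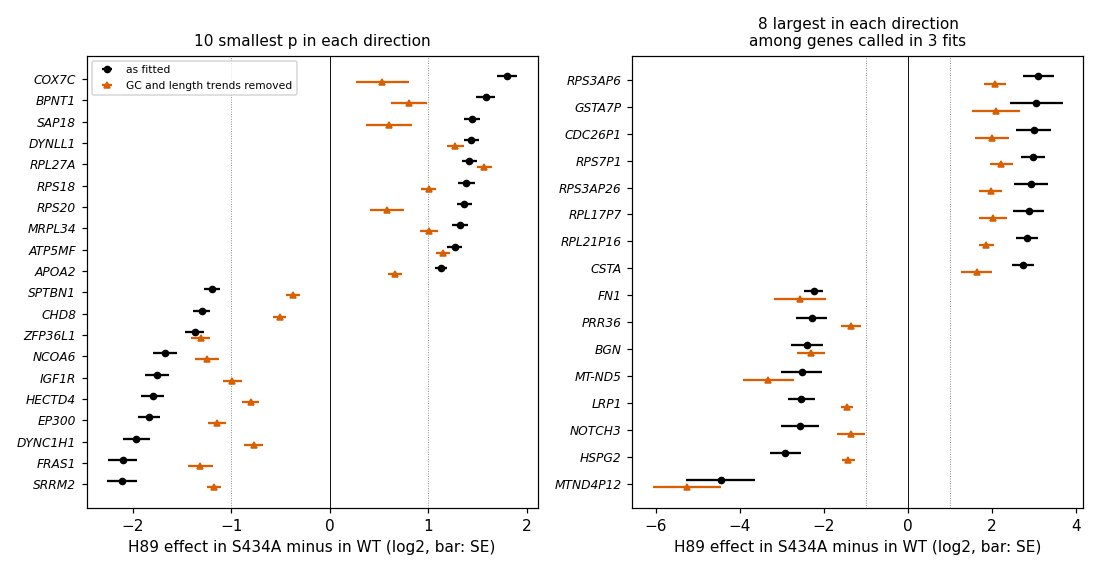
Interaction (log2, H89 effect in S434A cells minus that in WT cells, with bars of 1 SE) of the 10 genes with the smallest p in each direction (left) and of the 8 largest in each direction among genes called in 3 fits (right), as fitted (black) and with GC content and length trends removed (orange). The dotted lines mark a 2-fold change; several of the genes on the left move inside them once the trends are removed.

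Called genes differed in gene structure from the rest. Genes called higher had a median length of 3022 bases and a median GC content of 43.3%, those called lower 6393 bases and 58.0%, and all genes tested 4734 bases and 49.0%. The share of protein-coding genes was 77.4%, 91.7% and 84.0% in the same order. Across 14280 genes with a GC value, the interaction had a Spearman correlation of -0.45 with GC content and of -0.26 with length, and both together took up 37.6% of its variance over genes, which all share the same 12 libraries. With the trends removed, 1003 genes were called higher and 850 lower, 34.2% of the genes called as fitted were among them, and 39 of the 3491 had the other sign. Of the named genes, 56 no longer met the thresholds in that fit and 5 turned sign. Whether the trends belong to the libraries or to the cells was not tested.

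Markers of the labelled line were present in all groups. Summed over 10 hepatocyte or HepG2 markers, the level was 48200 to 49100 CPM in S434A cells with H89, 33700 to 57300 CPM in S434A cells without H89, 47500 to 51100 CPM in WT cells with H89 and 60700 to 62100 CPM in WT cells without H89. Of these markers 3 passed higher and 4 lower (70.0% in all, against 48.0% of all genes tested), among them APOA1, TTR (0.51) and HNF4A (-0.98). Summed over 8 fibroblast or stellate markers it was 49.4 to 54.8, 55.1 to 79.9, 55.0 to 57.2 and 29.9 to 32.3 CPM in the same order of groups, with COL1A2, DCN and THY1 at 0 in all 12 libraries, and ACTA2 and PDGFRB, the 2 tested, had -0.98 and -0.95. Over the 4 endothelial markers matched by symbol it was 3.69 to 5.75, 4.64 to 8.65, 4.65 to 6.05 and 2.22 to 2.56 CPM, with KDR and TEK at 0. Over 9 blood and macrophage markers it was 2160 to 2250, 2370 to 3040, 2010 to 2130 and 3640 to 3720 CPM, nearly all from LYZ, with PTPRC, CD163, HBB, CD3E and MS4A1 at 0. Over 5 cholangiocyte markers it was 417 to 439, 424 to 447, 437 to 468 and 283 to 291 CPM.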

How the data were processed

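RNA from HepG2 cells was sequenced in 12 libraries, 3 per group. The deposited values are the authors' raw counts per gene (read pairs), from featureCounts 2.0.1 over exons of an hg19 annotation, per the file headers; its command carries no strand or multimapping setting, so overlapping, antisense and near-identical genes are uncertain. Bowtie 0.12.2 and hg19 are named per the submitters' processing notes. The sources used here do not give the library kit, trimming, strandedness or any batch.

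Counts were taken as deposited (total counts 17562754 to 37187794 per library). They were fitted jointly over the 4 groups in edgeR 4.0.16 under R 4.3.3, after TMM scaling and filterByExpr with a minimum count of 10, by the robust quasi-likelihood F test with no block, adjusted by Benjamini-Hochberg over 14435 genes. SEs were obtained as the absolute log2 value over the square root of its F statistic, and CPM are TMM-scaled. P-values measure the spread between replicates, whose cultures are not described further. Trends on GC content and length were removed by offsets from splines with 5 degrees of freedom; GC values were looked up by gene identifier in a GENCODE annotation (GRCh38), and positions are those of the deposited table. Also tried were DESeq2 1.42.0, limma 3.58.1 (voom, with and without a weight per group), upper-quartile and RLE scaling, other filters, a replicate block and the removal of single libraries. The edgeR interaction test was run on simulated counts with known interactions. The removal of trends, the other fits and the classes of form were not simulated. Replicates of a group differed by more than sampling noise (chi-square per degree of freedom 1.61 to 154).

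Replicate numbers were not taken as pairs: 4 of 18 same-number pairs had correlated deviations over 0.1. The members, gene lists and alternatives were chosen with earlier results of these data known, so no p is given for a list; the counts of list members without replicate 1 of S434A cells without H89 were added after seeing the data. Named genes were HDAC1, the 10 smallest p-values in each direction among called genes with a plain symbol and at least 2 CPM in the highest group, the 8 largest in each direction among genes called in 3 fits, the 3 smallest p-values of each form, and up to 4 members of each list that passed. A few genes that these rules name are not reported here. FN1's promoter is from RefSeq (GRCh38.p14).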

Additional observations from a re-analysis of the deposited data

Results flagged for a closer look

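The H89 effect differed between the genotypes by a test of the difference itself, the interaction term of the edgeR fit, for 1696 genes with a higher effect in S434A cells and 1795 with a lower one. Among the named genes with the smallest p-values, the interaction (log2, S434A minus WT) was 1.37 for RPS20, 1.44 for DYNLL1, 1.42 for RPL27A, 1.13 for APOA2, 1.45 for SAP18, 1.80 for COX7C, 1.39 for RPS18, 1.58 for BPNT1, 1.27 for ATP5MF and 1.32 for MRPL34. It was -1.84 for EP300, -1.80 for HECTD4, -1.19 for SPTBN1, -1.30 for CHD8, -2.10 for FRAS1, -1.76 for IGF1R, -1.97 for DYNC1H1, -2.11 for SRRM2, -1.67 for NCOA6 and -1.37 for ZFP36L1. Groups of 3 libraries are too small for a test of single outlying samples.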

How the results depend on the processing

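Counts of called genes moved most with the removal of GC content and length trends, to 1003 higher and 850 lower. They were 884 and 629 with trends removed in limma-voom with a weight per group, 1077 and 844 with trends removed and replicate 1 of S434A cells without H89 left out, and 1001 and 824 with trends removed and the replicate block. The block alone gave 1744 higher and 1744 lower; the replicate numbers share only a label, and correlations of same-number pairs ran between -0.15 and 0.47. With RLE factors 1852 were higher and 1616 lower, with upper-quartile factors 1679 and 1844, with DESeq2 1877 and 1604, with limma-voom 1879 and 1712, with a weight per group 1707 and 1555, with no filter 1764 and 1617, with at least 1 CPM in 3 libraries 1581 and 1717. Leaving out 1 library gave 1543 (replicate 1 of S434A cells without H89 left out) to 2347 (replicate 3 left out) higher, and 1533 (replicate 2 left out) to 2121 (replicate 3 left out) lower. Genes that passed between S434A and WT cells with H89 numbered 2 with DESeq2, 3 with the weight per group, 108 with trends removed and the weight per group, 46 with trends removed and that replicate 1 left out, and 0 without any 1 library. Of the named genes, 5 turned sign with the trends removed. In that fit, with the weight per group besides, with that replicate 1 left out and with the block, in this order, the interaction of MCM5 was 0.0247, 0.0249, 0.0585 and 0.0244. The interaction of VEGFA was 0.24, 0.24, 0.20 and 0.24, the interaction of MT-ND3 was -0.22, -0.21, -0.0893 and -0.21, and the interaction of LYZ was -0.24, -0.22, -0.0272 and -0.23. The interaction of PSMB1 was -0.0037 with the trends removed. The cause was not tested. The number of libraries and the spread in S434A cells without H89 limit what can be told apart.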

Other observations

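Of 15 tested NRF2 targets and metallothioneins, 2 passed higher and 4 lower. TALDO1 and NQO1, enzymes of the pentose phosphate route and of quinone reduction, had interactions of 0.65 and 0.60, while OSGIN1 had -1.37. OSGIN1 lost its call in 4 of 25 alternatives (range -1.54 to -0.46).

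Among 13 hypoxia genes tested, 2 passed higher and 4 lower (46.2% in all, against 48.0% of all genes tested). BNIP3, a mitophagy receptor, averaged 394 ± 19.3 CPM with H89 and 439 ± 73.6 CPM without H89 in S434A cells, against 408 ± 37.3 CPM with H89 and 1093 ± 10.4 CPM without H89 in WT cells (SD, n = 3 each), with an interaction of 1.27 (SE 0.15, adjusted p = 7.7e-05). ANKRD37 had 1.54, and VEGFA and P4HA2, a collagen prolyl hydroxylase, had -0.65 and -0.75. ANKRD37 lost its call in 4 of 25 alternatives (range 0.57 to 1.74), and VEGFA turned sign in 4 of 25. Among 16 autophagy and lysosome genes, 3 passed higher and 8 lower (68.8% in all, against 48.0% of all genes tested). The protease CTSL was at 0.72, the cholesterol transporter NPC1 at -1.44, the autophagy kinase ULK1 at -1.57 and LAMP1 at -0.997. With the trends removed ULK1 was at -0.42.

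Among 23 tested genes of the unfolded protein and integrated stress response, 6 passed higher and 5 lower. In all 47.8% passed, near the 48.0% of all genes tested. Without replicate 1 of S434A cells without H89, 8 passed in each direction. HSPA5, the chaperone BiP, was lower with H89 in S434A cells at -0.17 and higher in WT cells at 0.35, with an interaction of -0.53 (SE 0.08, adjusted p = 0.00026). SDF2L1 and VLDLR had 0.78 and -1.02. Of 14 epithelial and mesenchymal genes tested of 18, 4 passed lower and 0 higher (28.6% in all, against 48.0% of all genes tested). Without that replicate 1, 6 passed lower and 3 higher. Besides FN1 the 4 as fitted were CDH1, E-cadherin, at -1.63, CDH2, N-cadherin, at -0.86 and SNAI1, a repressor of CDH1, at -1.31. Both cadherins thus had the same sign. CD14 had -0.98. LYZ, lysozyme, had 0.85, and -0.24 (adjusted p = 0.21) with the trends removed. VWF had -1.52, and -0.52 (adjusted p = 0.22) with the trends removed.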
